A study of Mus musculus with 16 samples.

Results

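Perilipin 1, perilipin 4, perilipin 5 and CIDEC coat the lipid droplets in which fat cells store triglyceride. At the mouse loci of their genes, Plin1, the neighbouring Plin4 and Plin5, and Cidec, 53 transcription factor peaks were found among the 61107 of the study's peak lists. A peak was a member when its centre lay in 1 of 3 windows of genome build mm9, which were chr7:86820000-86920000 for Plin1, chr17:56190000-56300000 for Plin4 and Plin5, and chr6:113330000-113430000 for Cidec. The PPARγ list of 30588 peaks gave 30 members, 8 at Plin1, 11 at Plin4/Plin5 and 11 at Cidec. The C/EBPα list of 30519 peaks gave 23 members, 6 at Plin1, 8 at Plin4/Plin5 and 9 at Cidec. Within the lists, members were taken by position and not by their values. The lists themselves hold peaks that the authors called from signal, and the members were chosen with earlier results of these data known.

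The study mapped proteins on chromatin by ChIP-seq, in which DNA bound by a protein is recovered with an antibody and sequenced. The cells were 3T3-L1 adipocytes, derived from an established line of mouse preadipocytes by adding dexamethasone, isobutylmethylxanthine and insulin to confluent dishes. On day 7 of differentiation one set of dishes received 1 µM rosiglitazone in 0.1% DMSO for 1 h, and the other received 0.1% DMSO alone for 1 h. Both sets had been through the same differentiation, so DMSO cells already carried PPARγ. The lists give PPARγ, C/EBPα, MED1 and CBP in 1 column per factor and treatment, so differences between treatments could not be set against replicates and were not tested. No expression values were analysed here, and the cell type could not be checked against marker genes.

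Perilipin 1 holds back lipolysis on the droplet surface until protein kinase A phosphorylates it, perilipin 4 coats small new droplets, and perilipin 5 is best known in muscle, liver and brown fat, where it ties droplets to mitochondria. CIDEC, also called Fsp27, sits where droplets touch and lets lipid pass from the smaller to the larger one. PPARγ, a nuclear receptor required for adipogenesis, is activated by rosiglitazone, a synthetic ligand. PPARγ binds as a dimer with RXR to repeats of the letters AGGTCA, and C/EBPα is a second fat cell transcription factor that often binds near it. MED1 is the Mediator subunit that liganded nuclear receptors recruit, and CBP is a histone acetyltransferase and coactivator.

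The start regions of the 4 genes are shown because the windows were laid around these genes. They run from 250 bases before to 50 bases after the annotated start, are from RefSeq on build GRCm38.p6, and are written 5′ to 3′ on the minus strand, on which all 4 genes lie. The windows are chr7:79732727-79733026 for Plin1, chr17:56109733-56110032 for Plin4, chr17:56117499-56117798 for the first start of Plin5, and chr6:113435711-113436010 and chr6:113434715-113435014 for the first and the second start of Cidec. Capitals mark TTGCNNAA, a C/EBP motif, in Plin1 and Cidec start 2, and AGGTCA, 1 copy of the unit of PPAR elements, in Plin5.
Plin1: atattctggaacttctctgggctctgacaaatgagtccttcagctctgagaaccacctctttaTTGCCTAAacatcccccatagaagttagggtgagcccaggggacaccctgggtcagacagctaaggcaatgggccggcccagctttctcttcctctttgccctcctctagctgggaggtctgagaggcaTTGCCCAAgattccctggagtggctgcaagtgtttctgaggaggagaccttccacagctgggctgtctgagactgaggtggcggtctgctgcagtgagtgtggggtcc
Plin4: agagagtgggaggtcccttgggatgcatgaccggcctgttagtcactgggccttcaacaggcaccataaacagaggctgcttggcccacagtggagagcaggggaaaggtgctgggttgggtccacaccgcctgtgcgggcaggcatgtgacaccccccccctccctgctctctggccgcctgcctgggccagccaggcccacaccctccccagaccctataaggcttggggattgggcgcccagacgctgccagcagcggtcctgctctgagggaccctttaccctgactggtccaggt
Plin5 start 1: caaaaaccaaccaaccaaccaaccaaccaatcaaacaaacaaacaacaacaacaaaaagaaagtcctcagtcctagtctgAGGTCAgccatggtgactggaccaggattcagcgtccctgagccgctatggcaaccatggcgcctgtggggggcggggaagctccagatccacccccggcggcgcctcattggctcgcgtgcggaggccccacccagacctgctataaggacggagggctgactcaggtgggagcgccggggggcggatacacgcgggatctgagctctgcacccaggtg
Cidec start 1: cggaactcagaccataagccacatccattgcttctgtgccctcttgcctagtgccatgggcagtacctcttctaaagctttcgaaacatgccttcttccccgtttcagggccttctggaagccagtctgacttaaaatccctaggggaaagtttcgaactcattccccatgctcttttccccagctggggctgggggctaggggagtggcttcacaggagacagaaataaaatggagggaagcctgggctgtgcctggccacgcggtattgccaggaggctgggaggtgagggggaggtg
Cidec start 2: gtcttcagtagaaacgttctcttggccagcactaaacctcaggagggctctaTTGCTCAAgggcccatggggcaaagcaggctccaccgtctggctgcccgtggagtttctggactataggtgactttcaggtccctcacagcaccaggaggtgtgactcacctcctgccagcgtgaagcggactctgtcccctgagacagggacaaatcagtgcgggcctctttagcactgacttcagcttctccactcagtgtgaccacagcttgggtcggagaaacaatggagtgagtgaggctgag
TTGCNNAA was found at 187 and 58 bases before the Plin1 start and at 198 bases before the second Cidec start, and 10.8% of 32851 RefSeq start windows of the same length hold it. AGGTCA was found at 170 bases before the first Plin5 start, and at 13 bases after the second Plin5 start, whose window is not printed. Of all windows, 16.3% hold AGGTCA. None of the windows of the 4 genes held DR1, the PPARγ-RXR repeat of 2 AGGTCA units with 1 base between them, at most 2 mismatches being allowed. DR1, whose exact form overlaps AGGTCA, is in 3.86% of all windows. Both strands were searched. The peaks carry mm9 coordinates and these windows another build, so no peak was placed on a start, an exon, an intron or a UTR, and no peak sequence is shown. In the RefSeq gene order Plin4 and Plin5 are adjacent, with Hdgfl2 and Lrg1 on either side, Plin1 lies between Kif7 and Pex11a, and Cidec between Rpusd3 and Jagn1.

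The 3 loci were dense in peaks. Among the 10993 tiles of 100 kb with a PPARγ peak the median tile held 2, and 4.98% held at least the 8 of Plin1, while 1.27% held at least the 11 of Plin4/Plin5 and of Cidec. The Plin4/Plin5 window is longer, at 110 kb. For C/EBPα, 10.0% of the tiles held at least the 6 of Plin1, 3.73% at least the 8 of Plin4/Plin5 and 2.04% at least the 9 of Cidec. The members also scored high. The authors' peak score, 1 value per peak, had a median of 17.1 in the PPARγ members, with a range of 8.1 to 210.7, against 11.5 in the whole list. It had a median of 22.6 in the C/EBPα members, with a range of 11.3 to 275.4, against 15.3 in the whole list. In the top decile of its list stood 10 of the 30 PPARγ members, 4 at Plin1 and 3 at each other locus, against 10.1% of all PPARγ peaks. For C/EBPα it was 8 of 23, against 10.1%.

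Peaks of both factors coincided at each of the 3 loci. A PPARγ peak that had at least 1 bp in common with a C/EBPα peak was counted as shared, and 5 of 8 were shared at Plin1, 4 of 11 at Plin4/Plin5 and 2 of 11 at Cidec. In all, 11 of 30 PPARγ members were shared, against 36.1% of the list, and 11 of 23 C/EBPα members, against 36.2%. The centres of the 11 pairs lay between 1 and 176 bp apart. The pairs were often unequal. The highest-scoring Plin1 C/EBPα peak stood on a PPARγ peak that was not among the 3 highest of its locus, and the highest-scoring C/EBPα peak of the Plin4/Plin5 locus did so too. At Cidec the highest-scoring peaks of both factors were the same site.

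**Figure D1:**
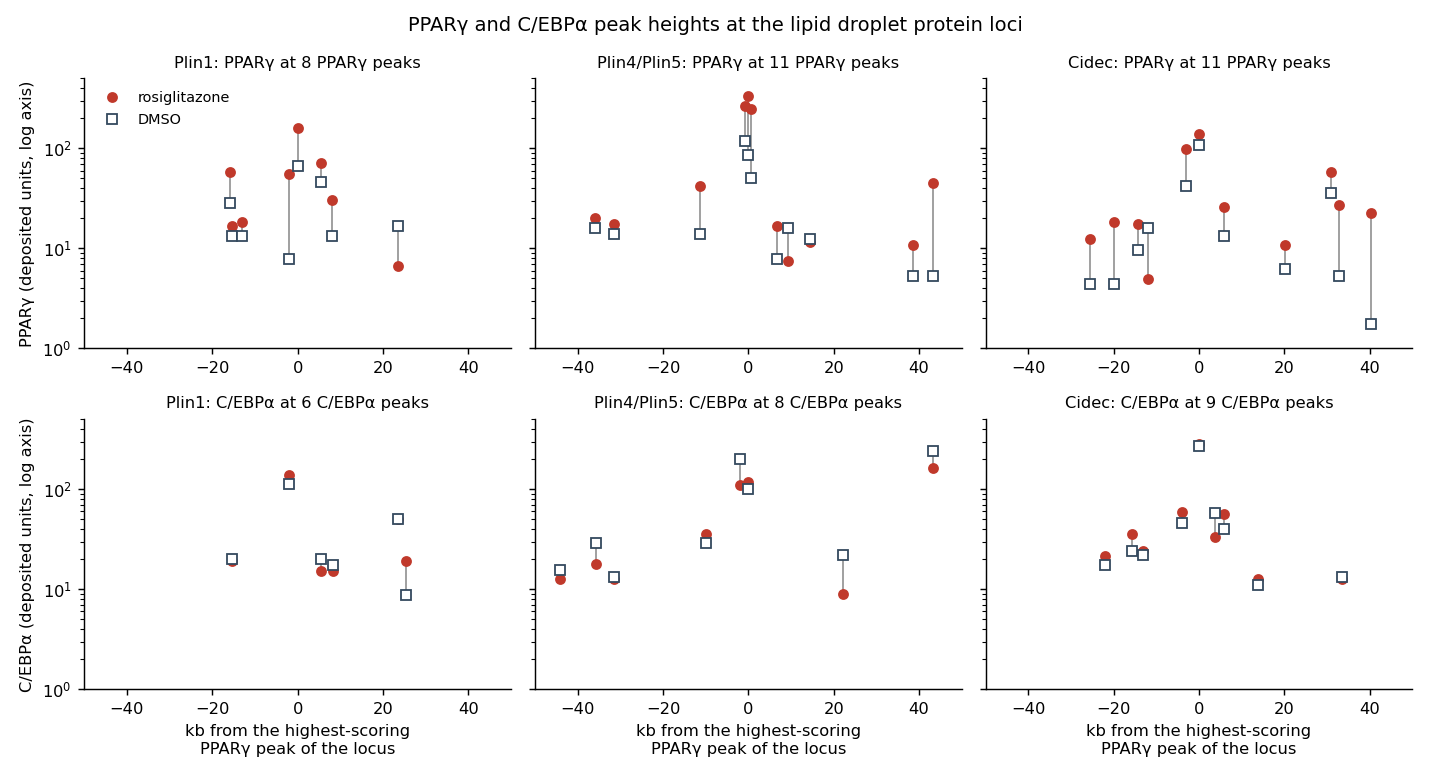
Height of each member peak by its distance from the highest-scoring PPARγ peak of its locus, in kb. The upper row gives PPARγ at PPARγ peaks and the lower row C/EBPα at C/EBPα peaks, in deposited units on a log axis, with rosiglitazone as filled circles, DMSO as open squares and a line joining the treatments of a peak. At Plin4/Plin5 3 PPARγ peaks near 0 kb stand above all others in rosiglitazone, between 248 and 331 units, while in the lower row C/EBPα is mostly close between treatments and is lower with rosiglitazone at the peaks with 163 and 111 units.

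The deposited values are tags (mapped reads) per peak scaled by the authors to a common library total, and they were whole multiples of a fixed step, so tags could be counted. One PPARγ tag was worth 0.831 units in rosiglitazone and 0.879 in DMSO, 1 C/EBPα tag 1.27 in rosiglitazone and 2.21 in DMSO, 1 MED1 tag 7.65 in rosiglitazone and 3.49 in DMSO, and 1 CBP tag 6.06 in rosiglitazone and 2.21 in DMSO. The rosiglitazone libraries of MED1 and CBP were thus shallower, the DMSO libraries being 2.19 and 2.74 times as deep, and the C/EBPα library of rosiglitazone was 1.73 times as deep as that of DMSO. The median PPARγ peak of the list held 17 PPARγ tags in rosiglitazone and 12 in DMSO, but 1 MED1 tag in rosiglitazone and 2 in DMSO. Intervals given below are exact 95% Clopper-Pearson intervals of the ratio, and they cover counting error only, not the spread between cultures. For a peak named because its ratio was the highest or lowest of its locus, the interval makes no allowance for that choice. A higher value can mean that more cells held the factor or that each cell held it longer, and these cannot be told apart in a whole culture.

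PPARγ was higher with rosiglitazone at all 3 loci. Over the Plin1 peaks it summed to 416 units in rosiglitazone and 205 in DMSO, a ratio of 2.03 (1.73 to 2.38; 500 and 233 tags). Over the Plin4/Plin5 peaks it summed to 1015 units in rosiglitazone and 346 in DMSO, a ratio of 2.94 (2.62 to 3.30; 1221 and 393 tags). Over the Cidec peaks it summed to 436 units in rosiglitazone and 248 in DMSO, a ratio of 1.76 (1.52 to 2.04; 524 and 282 tags). The Plin4/Plin5 interval lay above those of both other loci, which overlapped each other. Divided by the ratio over the whole list, they were 1.33 (1.14 to 1.56) at Plin1, 1.93 (1.72 to 2.16) at Plin4/Plin5 and 1.15 (0.994 to 1.34) at Cidec, whose interval then spans no difference. As deposited, the 30 members together gave 2.34 (2.16 to 2.53), against 1.52 (1.52 to 1.53) over the 30558 other PPARγ peaks.

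High-scoring peaks had higher ratios in the list as a whole, so the members were also set beside peaks of like score. The 10 members of the top decile gave 2.51 (2.30 to 2.75), against 1.75 (1.74 to 1.76) over the 3079 other peaks of that decile. The 3 neighbouring Plin4/Plin5 peaks described below are among these 10. They held 1015 of the 1784 PPARγ tags of the 10 in rosiglitazone and 290 of the 672 in DMSO. The ratio of 2.51 thus rested in large part on those 3 peaks, and the top-decile members were not summed without them. The 20 members below it gave 1.85 (1.58 to 2.17), against 1.42 over the other peaks there. The Cidec locus by itself, at 1.76, was close to the other top-decile peaks, but only 3 of its 11 peaks are in that decile. Its peaks were not split by score, so this is not a comparison of peaks of like score. Without the same 3 Plin4/Plin5 peaks, the other 27 members, taken over all scores, gave 1.88 (1.71 to 2.08).

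PPARγ was higher with rosiglitazone at most single members. In 26 of 30 PPARγ was higher in rosiglitazone than in DMSO, by any amount, against 70.5% of the list. Of the 29 members with at least 20 PPARγ tags over both treatments, 14 were at least 2-fold higher on the log2(value + 1) scale, 4 at Plin1, 5 at Plin4/Plin5 and 5 at Cidec, against 30.3% of the 26384 list peaks with as many tags. At least 2-fold lower were 2 members, against 4.03%. With every rosiglitazone value divided by the ratio over the whole list, 7 members were 2-fold higher and 3 were 2-fold lower, against 14.6% and 14.0% of the list. The median log2 difference was 0.95 in the members and 0.50 in the list.

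**Figure D2:**
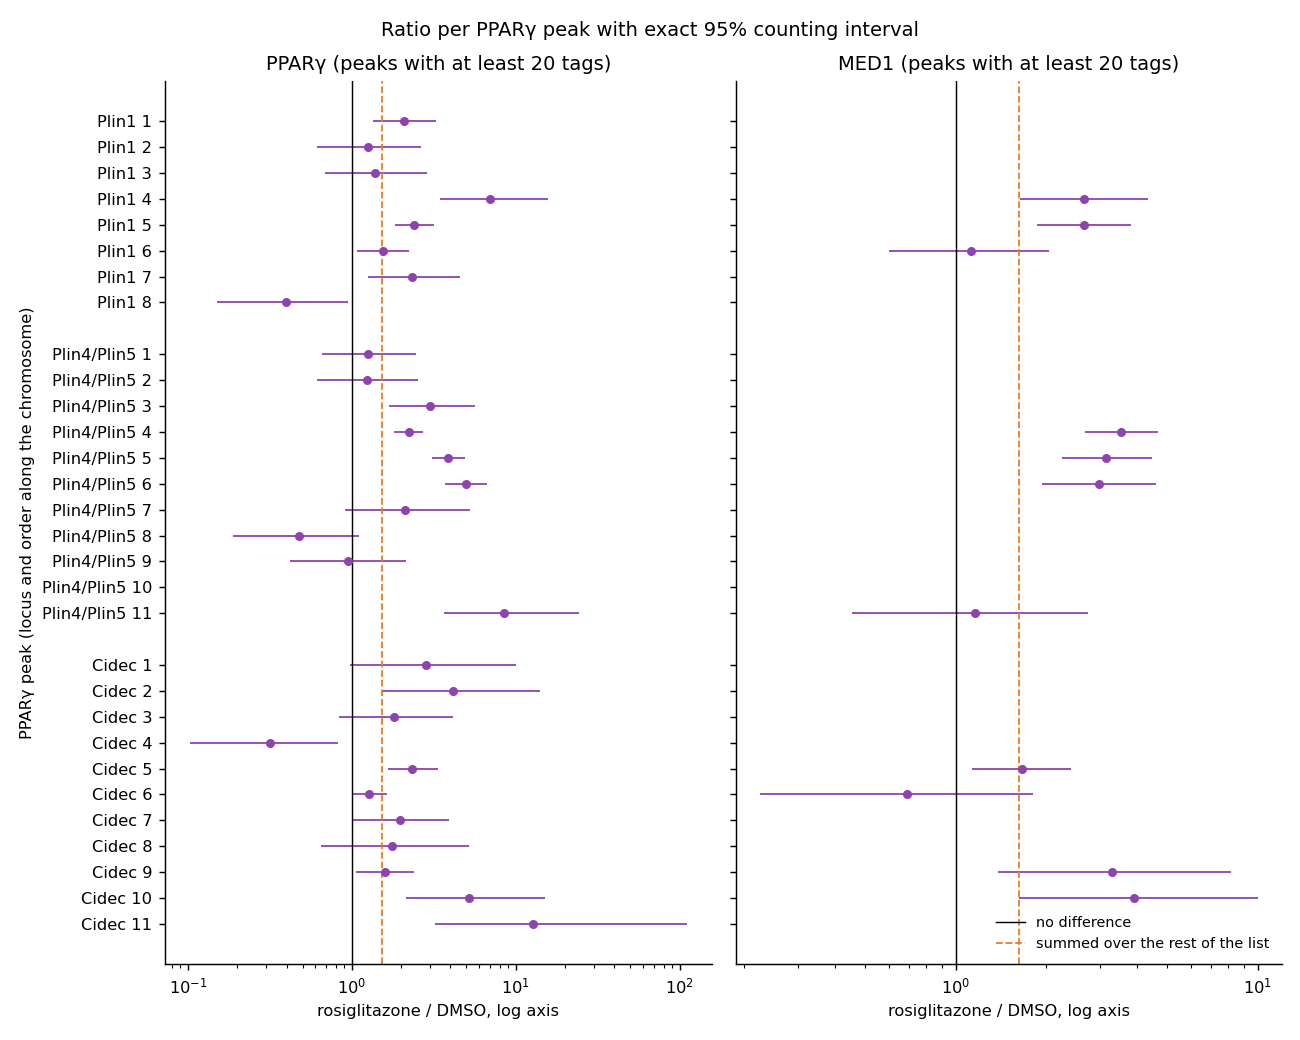
Ratio of rosiglitazone to DMSO at each PPARγ member peak, for PPARγ on the left and MED1 on the right, on log axes. Points are the ratios, bars the exact 95% counting intervals, the solid line marks no difference and the dashed line the ratio over the rest of the list, and peaks with fewer than 20 tags of the factor are left blank. PPARγ lies to the right of the solid line at most peaks and to the left of it at 4 of the plotted ones, and MED1 lies to its right at 10 of 11.

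At Plin1 the leading PPARγ site was a PPARγ peak without a listed C/EBPα peak. Peaks are numbered along the chromosome within a locus. PPARγ peak 5, chr7:86879687-86879873, had the score 113.2, rank 213 of the list, and held 159.6 units of PPARγ in rosiglitazone and 66.8 in DMSO, a ratio of 2.39 (1.82 to 3.16). MED1 there was 559 units in rosiglitazone and 210 in DMSO, a ratio of 2.66 (1.87 to 3.81). C/EBPα was 10.2 units in rosiglitazone and 0 in DMSO, which is 8 and 0 tags. The peak thus carried more PPARγ and more MED1 after rosiglitazone. Its C/EBPα stood at the 71.4th percentile of PPARγ peaks in rosiglitazone and at the 10.0th in DMSO. The latter is the tied rank of all 6128 list peaks with 0 C/EBPα tags in DMSO, whose library was the shallower one.

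A Plin1 site led by C/EBPα lay 2.1 kb from it and had the highest PPARγ ratio of the locus. PPARγ peak 4, chr7:86877586-86877772, held 54.9 units of PPARγ in rosiglitazone and 7.91 in DMSO, a ratio of 6.93 (3.44 to 15.8). C/EBPα at the same peak was 131 units in rosiglitazone and 108 in DMSO, a ratio of 1.21 (0.855 to 1.74), and MED1 was 306 units in rosiglitazone and 115 in DMSO, a ratio of 2.65 (1.63 to 4.34). The site was therefore rich in C/EBPα under both treatments and ranked low for PPARγ in DMSO, at the 33.6th percentile of the list, but at the 94.4th in rosiglitazone. The C/EBPα peak on it, chr7:86877574-86877804, had the highest C/EBPα score of the locus, 130.9, with 139 C/EBPα units in rosiglitazone and 113 in DMSO, a ratio of 1.23 (0.876 to 1.75).

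The other named Plin1 peaks differed less or in the opposite direction. PPARγ peak 6, chr7:86885253-86885439, held 70.7 units of PPARγ in rosiglitazone and 45.7 in DMSO, a ratio of 1.55 (1.08 to 2.23). PPARγ peak 1, chr7:86863810-86863996, held 58.2 units in rosiglitazone and 28.1 in DMSO, a ratio of 2.07 (1.34 to 3.25). MED1 at peak 6 was 138 units in rosiglitazone and 122 in DMSO, with an interval of 0.600 to 2.04 that spans no difference. PPARγ peak 8, chr7:86903206-86903392, had the lowest PPARγ ratio of the locus, with 6.65 units of PPARγ in rosiglitazone and 16.7 in DMSO, a value of 0.398 (0.151 to 0.952) that rests on 8 and 19 tags. C/EBPα at the shared site of peak 8, chr7:86903150-86903380, was 51.0 units in rosiglitazone and 50.8 in DMSO, so C/EBPα was level there.

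At Plin4/Plin5 most PPARγ lay in 3 neighbouring peaks, numbers 4, 5 and 6, with gaps of 821 and 522 bp between their centres. They ranked 63, 50 and 111 in the list by score and held 83.1% of the locus's PPARγ tags in rosiglitazone and 73.8% in DMSO. They held 86.7% of its MED1 tags in rosiglitazone and 79.1% in DMSO. PPARγ over the 3 peaks had a ratio of 3.31 (2.90 to 3.78; 1015 and 290 tags) and MED1 a ratio of 3.30 (2.73 to 3.99). The other 8 PPARγ peaks of the locus gave 1.89 (1.49 to 2.42) for PPARγ and 1.92 (1.25 to 2.95) for MED1, close to the other loci.

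Within this group the PPARγ ratio was lowest at peak 4 and highest at peak 6. PPARγ peak 4, chr17:56249238-56249424, held 265 units of PPARγ in rosiglitazone and 119.6 in DMSO, a ratio of 2.22 (1.81 to 2.73). Peak 5, chr17:56250059-56250245, held 331 units in rosiglitazone and 85.3 in DMSO, a ratio of 3.88 (3.10 to 4.89). Peak 6, chr17:56250581-56250767, held 248 units in rosiglitazone and 50.1 in DMSO, a ratio of 4.94 (3.71 to 6.68). Peak 5 was the highest in rosiglitazone and peak 4 in DMSO, and the interval of peak 4 lay below those of peaks 5 and 6.

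MED1 kept the order of peaks 4, 5 and 6 in both treatments. It was 1064 units in rosiglitazone and 301 in DMSO at peak 4, a ratio of 3.54 (2.69 to 4.69). It was 673 units in rosiglitazone and 213 in DMSO at peak 5, a ratio of 3.16 (2.25 to 4.45), and 406 in rosiglitazone and 136 in DMSO at peak 6, a ratio of 2.98 (1.93 to 4.62). The 3 MED1 intervals overlapped. CBP was 152 units in rosiglitazone and 124 in DMSO at peak 4, 78.8 in rosiglitazone and 55.3 in DMSO at peak 5, and 42.5 in rosiglitazone and 64.1 in DMSO at peak 6. Its ratio over the 3 peaks, 1.12 (0.775 to 1.60), spans no difference.

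C/EBPα split the group. At peak 4 it was 11.5 units in rosiglitazone and 35.3 in DMSO, a ratio of 0.324 (0.126 to 0.780) on few tags. At peak 5, which shares its site with a listed C/EBPα peak, it was 108 units in rosiglitazone and 88.3 in DMSO, a ratio of 1.23 (0.832 to 1.83). At peak 6 it was 112 units in rosiglitazone and 24.3 in DMSO, a ratio of 4.61 (2.46 to 9.58), although no peak of the C/EBPα list overlaps it and the nearest C/EBPα centre is 523 bp away. Peak 6 ranked at the 98.8th percentile of PPARγ peaks for C/EBPα in rosiglitazone and at the 88.4th in DMSO.

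**Figure D3:**
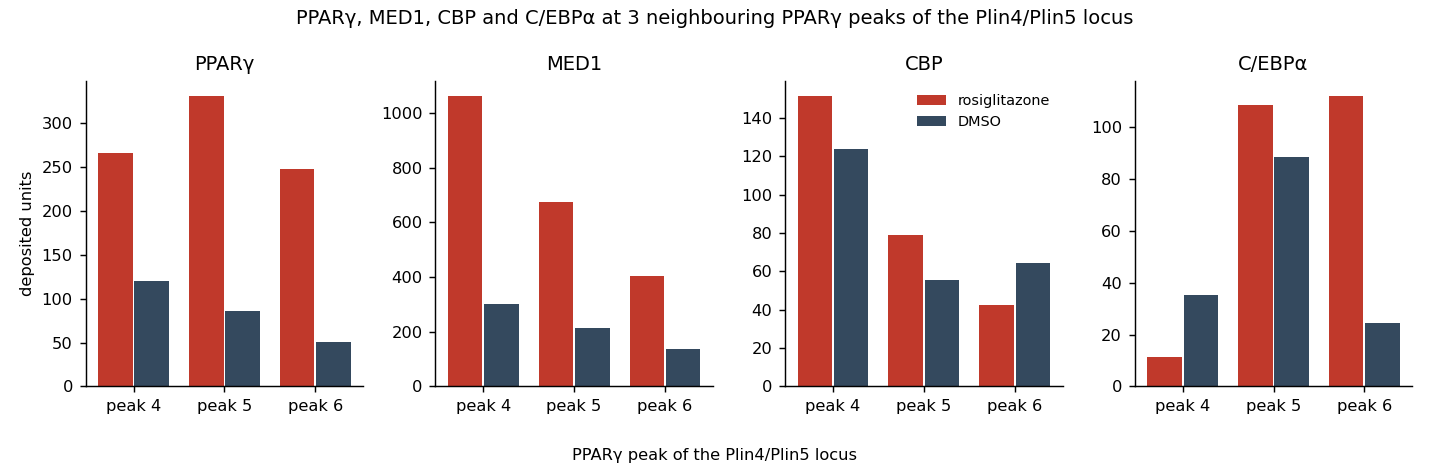
PPARγ, MED1, CBP and C/EBPα at PPARγ peaks 4, 5 and 6 of the Plin4/Plin5 locus, in deposited units, with rosiglitazone bars left of DMSO bars and 1 column per treatment, so no error bars. PPARγ and MED1 are higher with rosiglitazone at all 3 peaks, CBP has no common direction, and C/EBPα is higher with rosiglitazone at peak 6 (112 against 24.3) and lower at peak 4 (11.5 against 35.3).

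Far from that group, the Plin4/Plin5 locus had a site rich in C/EBPα where PPARγ was low in DMSO. PPARγ peak 11, chr17:56293250-56293436, held 44.9 units of PPARγ in rosiglitazone and 5.28 in DMSO, which is 54 and 6 tags and a ratio of 8.51 (3.67 to 24.2). It stood at the 92.0th percentile of the list for PPARγ in rosiglitazone and at the 14.8th in DMSO. C/EBPα at the overlapping C/EBPα peak 8, chr17:56293236-56293466, was 163 units in rosiglitazone and 241 in DMSO, a ratio of 0.677 (0.521 to 0.883). PPARγ was thus higher and C/EBPα lower in rosiglitazone at 1 site, while MED1, at 68.9 units in rosiglitazone and 59.4 in DMSO, had an interval of 0.455 to 2.75. PPARγ peak 8, chr17:56259275-56259461, had the lowest PPARγ ratio of the locus, with 7.48 units in rosiglitazone and 15.8 in DMSO and an interval of 0.187 to 1.11.

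At Cidec the highest-scoring peak of both factors differed little between treatments. PPARγ peak 6, chr6:113388672-113388858, had the score 123.9 and held 139.7 units of PPARγ in rosiglitazone and 109 in DMSO, a ratio of 1.28 (1.01 to 1.63). The C/EBPα peak on it, chr6:113388639-113388869, had the score 275.4, rank 62 of the C/EBPα list, with 283 C/EBPα units in rosiglitazone and 269 in DMSO, a ratio of 1.05 (0.838 to 1.32). MED1 at PPARγ peak 6 was 45.9 units in rosiglitazone and 66.4 in DMSO, with an interval of 0.226 to 1.80. The strongest Cidec site for PPARγ and C/EBPα was thus not the strongest for MED1.

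MED1 at Cidec was highest at PPARγ peak 5, chr6:113385723-113385909, with 406 units in rosiglitazone and 245 in DMSO, a ratio of 1.66 (1.14 to 2.40). This placed it at the 99.7th percentile of PPARγ peaks for MED1 in rosiglitazone and at the 99.8th in DMSO. PPARγ at peak 5 was 98.9 units in rosiglitazone and 42.2 in DMSO, a ratio of 2.34 (1.66 to 3.35). The site has no overlapping C/EBPα peak, and C/EBPα peak 4, chr6:113384740-113384970, 961 bp away, had 54.9 PPARγ units in rosiglitazone and 13.2 in DMSO, a ratio of 4.16 (2.35 to 7.85). Peak 4 of the C/EBPα list was level in C/EBPα itself, with 58.6 units in rosiglitazone and 46.4 in DMSO and an interval of 0.739 to 2.23.

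The 2 largest PPARγ ratios at Cidec came from low peaks near the end of the window. PPARγ peak 9, the third by score, chr6:113419484-113419670, held 57.4 units of PPARγ in rosiglitazone and 36.1 in DMSO, a ratio of 1.59 (1.07 to 2.40). PPARγ peak 11, chr6:113429015-113429201, held 22.5 units of PPARγ in rosiglitazone and 1.76 in DMSO, which is 27 and 2 tags and a ratio of 12.8 (3.21 to 111). Peak 10, chr6:113421413-113421599, named after its values were seen, held 27.4 units of PPARγ in rosiglitazone and 5.28 in DMSO, a ratio of 5.20 (2.15 to 15.2). MED1 was higher with rosiglitazone at all of these, with 115 units in rosiglitazone against 34.9 in DMSO at peak 9, 122 against 31.5 at peak 10 and 84.2 against 6.99 at peak 11. The lowest PPARγ ratio of the locus was at peak 4, chr6:113376798-113376984, with 4.99 units in rosiglitazone and 15.8 in DMSO, a ratio of 0.315 (0.102 to 0.829). Peak 11 lies just inside the window, and the nearest PPARγ peak outside, 1.08 kb past its end, had 11.6 units in rosiglitazone and 12.3 in DMSO. At Plin1 the nearest PPARγ peak outside lay 5.99 kb past the end, with 74.0 units in rosiglitazone and 87.1 in DMSO, and was higher than most Plin1 members. Taking it in would lower the summed Plin1 ratio, which therefore depends on where the window ends. No window wide enough to hold it was tried.

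MED1, summed by locus over the PPARγ peaks, was higher with rosiglitazone by about as much as PPARγ. At Plin1 it was 1117 units in rosiglitazone and 573 in DMSO, a ratio of 1.95 (1.55 to 2.45). At Plin4/Plin5 it was 2472 units in rosiglitazone and 821 in DMSO, a ratio of 3.01 (2.54 to 3.58). At Cidec it was 819 units in rosiglitazone and 433 in DMSO, a ratio of 1.89 (1.45 to 2.47). Plin4/Plin5 again lay above both other loci, whose intervals overlapped each other. Divided by the ratio over the whole list, MED1 was 1.20 (0.953 to 1.51) at Plin1, 1.85 (1.56 to 2.20) at Plin4/Plin5 and 1.16 (0.889 to 1.52) at Cidec, so that Plin1 and Cidec spanned no difference. All members gave 2.41 (2.14 to 2.72), against 1.62 (1.61 to 1.64) over the rest of the list and 1.82 (1.79 to 1.85) over the other top-decile peaks. Without the 3 neighbouring Plin4/Plin5 peaks the members gave 1.92 (1.64 to 2.26). Of the 11 members with at least 20 MED1 tags, 7 were at least 2-fold higher, against 45.1% of the list peaks with as many, and 0 were 2-fold lower, against 8.14%. Peak by peak and by any amount, MED1 was higher with rosiglitazone at 19 of the 30 members, lower at 9 and equal at 2. In the whole list of 30588 these were 14690, 9416 and 6482 peaks. At Cidec MED1 was higher at 5 of 11 peaks, lower at 5 and equal at 1, but 7 of these 11 had fewer than 20 MED1 tags. Of the 4 Cidec peaks with at least 20, 3 were higher and PPARγ peak 6 was lower.

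CBP was higher with rosiglitazone at Plin1 and Cidec, while at Plin4/Plin5 its interval spans no difference. Over the PPARγ peaks it was 309 units in rosiglitazone and 194 in DMSO at Plin1, a ratio of 1.59 (1.10 to 2.27). At Plin4/Plin5 it was 334 units in rosiglitazone and 305 in DMSO, a ratio of 1.09 (0.785 to 1.51), and at Cidec 315 units in rosiglitazone and 181 in DMSO, a ratio of 1.74 (1.20 to 2.49). The 3 intervals overlapped, and each held the ratio of 1.38 over the rest of the list. Divided by the ratio over the whole list, CBP at Plin4/Plin5 turned to 0.793 (0.569 to 1.09), and the intervals of Plin1 and Cidec then spanned no difference, at 1.15 (0.800 to 1.65) and 1.26 (0.874 to 1.81). Of the 9 members with at least 20 CBP tags 0 were 2-fold higher and 0 were 2-fold lower, against 22.7% and 5.70% of the list peaks with as many. The Plin4/Plin5 locus thus had the highest MED1 ratio and a CBP ratio whose interval spans no difference.

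At the peaks of its own list, C/EBPα did not differ beyond counting error at Plin1 and Cidec and was lower with rosiglitazone at Plin4/Plin5. Over the C/EBPα peaks it summed to 259 units in rosiglitazone and 229.6 in DMSO at Plin1, a ratio of 1.13 (0.885 to 1.44). At Cidec it summed to 537 units in rosiglitazone and 501 in DMSO, a ratio of 1.07 (0.910 to 1.27). At Plin4/Plin5 it summed to 479 units in rosiglitazone and 651 in DMSO, a ratio of 0.735 (0.630 to 0.859), against 1.01 over the rest of the list and 0.950 over the other top-decile peaks. Over the 11 PPARγ peaks of Plin4/Plin5 the C/EBPα ratio was 1.05 (0.875 to 1.26). It was 1.57 (1.18 to 2.11) over the 3 neighbouring ones and 0.754 (0.589 to 0.968) over the other 8. Those 8 include PPARγ peak 11, the site of C/EBPα peak 8. PPARγ peak 11 held 115 of their 153 C/EBPα tags in rosiglitazone and 101 of their 117 in DMSO. The lower value over the 8 therefore rested on a site that the C/EBPα list also holds, so it is not separate from that list's result. The lower value was not found at every site of the locus. Most of the difference at the C/EBPα peaks came from C/EBPα peak 8, given above, and C/EBPα peak 5, chr17:56248070-56248300, which had 111 units in rosiglitazone and 201 in DMSO, a ratio of 0.551 (0.406 to 0.748). C/EBPα peak 6, chr17:56250036-56250266, the site of PPARγ peak 5 and named after its values were seen, had 117 units in rosiglitazone and 102 in DMSO, with an interval of 0.801 to 1.68. At PPARγ peaks, of the 10 members with at least 20 C/EBPα tags, 2 were 2-fold higher and 1 was 2-fold lower in C/EBPα, against 15.4% and 8.07%. Of the 17 C/EBPα members with at least 20 C/EBPα tags, 0 were 2-fold higher and 0 were 2-fold lower, against 13.8% and 7.38% of the list peaks with as many.

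**Figure D4:**
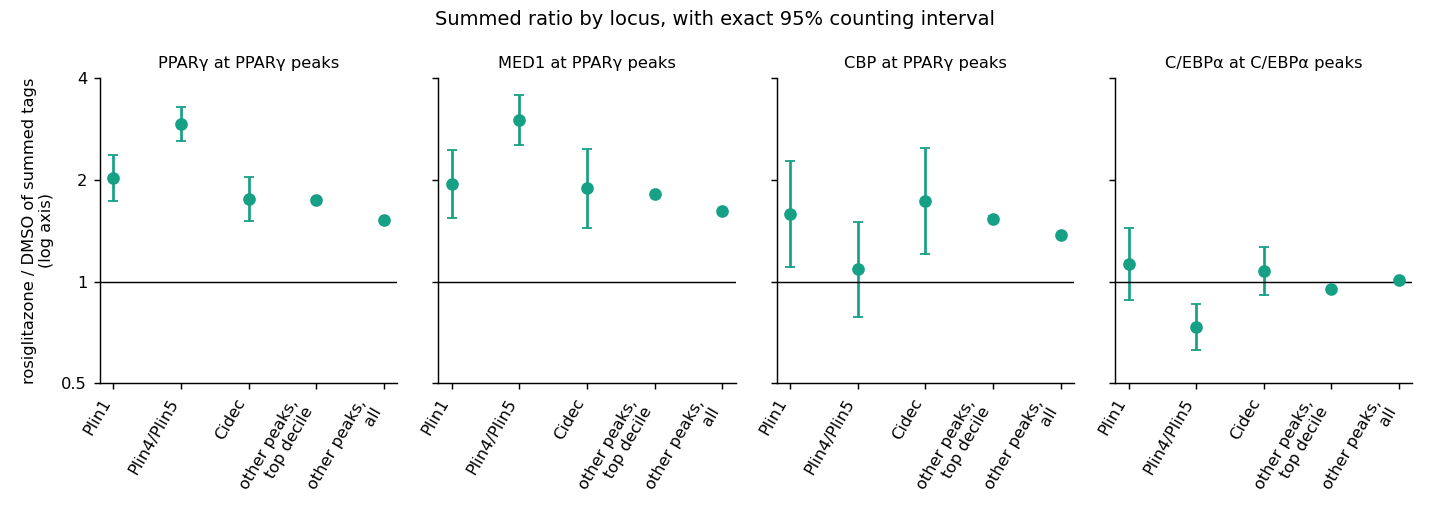
Ratio of rosiglitazone to DMSO of the tags summed over each locus, on a log axis, for PPARγ, MED1 and CBP at PPARγ peaks and C/EBPα at C/EBPα peaks. Points are ratios, bars exact 95% counting intervals, and the 2 right-hand points of each panel are the other peaks of the list's top decile by score and all other peaks. Plin4/Plin5 is the highest locus for PPARγ (2.94) and MED1 (3.01) and the lowest for CBP (1.09, with overlapping intervals) and for C/EBPα at C/EBPα peaks (0.735).

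PPARγ at the C/EBPα peaks was measured in the same columns, and the shared sites enter both lists. Of the 14 C/EBPα members with at least 20 PPARγ tags, 6 were at least 2-fold higher in PPARγ, against 34.0% of the list peaks with as many, and 1 was 2-fold lower, against 2.93%.

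Shared and unshared PPARγ members had similar PPARγ ratios. The 11 shared PPARγ members gave 2.23 (1.98 to 2.52) and the 19 unshared 2.41 (2.18 to 2.68), with overlapping intervals. MED1 gave 1.998 (1.63 to 2.45) at the shared and 2.68 (2.30 to 3.12) at the unshared members, also overlapping. C/EBPα at the unshared PPARγ members came to 167 tags in rosiglitazone and 48 in DMSO, a ratio of 2.01 (1.45 to 2.83), against 0.940 over the unshared rest of the list. This rested on Plin4/Plin5 PPARγ peak 6. Without it, a choice made after its values were seen, the other 18 had 79 tags in rosiglitazone and 37 in DMSO, a ratio of 1.23 (0.823 to 1.87) that spans no difference.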

How the data were processed

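Per the labels' protocols, 3T3-L1 adipocyte chromatin was fixed with formaldehyde, sonicated and immunoprecipitated. The build was mm9 and the tools were Bowtie, HOMER, edgeR and FastQC, per the submitters' processing notes, with versions and settings not given in the sources used here. Antibody and treatment divide the 16 samples into 12 groups, and RNA polymerase II and input were not analysed here. The authors deposited 2 peak lists, each with 8 columns of signal, the tags per peak scaled to a common total that no header states. The MED1 rosiglitazone column is headed with a development code of that drug, BRL, and was given to the only such sample. PPARγ has 2 samples per treatment in the labels but 1 column, and which sample or samples that column holds is not stated. The authors also deposited a score per peak, used to rank peaks, and a fraction per peak that describes how its tags lie about the centre. Whether the authors called peaks on 1 sample or on pooled samples is not stated.

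Steps were found from the deposited values, and 100% of the signal values were whole multiples within 0.02 steps in all 8 columns. A count model needs replicates and was not fitted. Ratios have exact 95% Clopper-Pearson intervals, and 2-fold differences were called on log2(value + 1) in peaks with at least 20 tags. Where a peak had 0 tags in a treatment no ratio was printed. Positions are as deposited. In each locus the peaks named were the 3 PPARγ and 2 C/EBPα peaks of highest score and the PPARγ peaks with the highest and lowest log2 ratio among those with at least 20 tags. The members and lists were chosen with earlier results of these data known. Other lipid droplet genes were not analysed here, since no mm9 annotation was used. The alternatives tried were other scalings, pseudocounts, tag minimums, score thresholds, windows and overlap rules. The step finder and the intervals were tested on simulated data. Python 3.11.15, numpy 2.4.6, pandas 2.3.3, SciPy 1.17.1 and matplotlib 3.10.9 were used.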

Additional observations from a re-analysis of the deposited data

How the results depend on the processing

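No paired analysis was possible because the columns carry no replicate number, and no replicate could be left out because each factor has 1 column per treatment. Of 63 alternative values, 51 stayed within the counting interval of the value reported, or within 1.5 times a reported count, 11 moved further and 1 turned direction. That 1 was C/EBPα at the unshared C/EBPα members, 1.03 without Plin4/Plin5 C/EBPα peak 5. CBP at Plin4/Plin5 also crossed no difference, as given above, but its interval spans no difference under both scalings. Divided by the ratio over all peaks of the same list, PPARγ was 1.33 at Plin1, 1.93 at Plin4/Plin5 and 1.15 at Cidec, MED1 was 1.20, 1.85 and 1.16 at the same loci, and the count of PPARγ members at least 2-fold higher was 7 instead of 14, which follows from the division. Without its highest-scoring peak, Cidec had a PPARγ ratio of 2.13 and Plin1 a MED1 ratio of 1.54, and in the central 60 kb Cidec had a MED1 ratio of 1.38 (0.997 to 1.90), which spans no difference. The cause of these 3 was not tested. At the PPARγ members depth limited C/EBPα, MED1 and CBP, with 20, 19 and 21 of 30 below 20 tags.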

Other observations

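PPARγ was also measured at the C/EBPα peaks that no listed PPARγ peak overlaps. At the 12 unshared C/EBPα members it came to 183 tags in rosiglitazone and 74 in DMSO, a ratio of 2.34 (1.78 to 3.11), against 1.47 (1.45 to 1.48) over the 19474 unshared C/EBPα peaks elsewhere. MED1 at the same 12 peaks had a ratio of 1.69 (1.27 to 2.25), against 1.23 elsewhere. Cidec C/EBPα peak 4 held 54.9 of the 152 PPARγ units of these 12 peaks in rosiglitazone and 13.2 of 65.1 in DMSO, and without it the PPARγ ratio was 1.87 (1.36 to 2.61). C/EBPα itself had 0.824 (0.689 to 0.987) at the 12 peaks, against 1.03 elsewhere, but 1.03 (0.820 to 1.30) without Plin4/Plin5 C/EBPα peak 5. Both peaks were left out after their values were seen.

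The fraction deposited for each peak had a median of 0.827 in the PPARγ members, with a range of 0.639 to 0.933, against 0.815 in the list. In the C/EBPα members it had a median of 0.810, with a range of 0.736 to 0.973, against 0.840 in the list.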
